A study of Mus musculus with 22 samples.

Results

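Glycolysis genes and targets of the hypoxia-inducible factors (HIFs) were followed across cell types, days and experiments in mouse gastruloids, aggregates of embryonic stem cells that elongate in culture and form tissues resembling those of the early embryo. The set held 33 genes, chosen by symbol from the 32285 features of the expression matrices: 4 for glucose uptake and hexose phosphorylation, 8 for the upper and 7 for the lower steps of glycolysis, 6 for the lactate and pyruvate branch, and 8 other HIF targets. All 33 were found, on 34 feature rows, because 2 features carry the symbol Aldoa. The row with 1376310 unique molecular identifiers (UMIs) was used and the other, with 251, was left out.

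In glycolysis, glucose enters through transporters such as Slc2a1 and Slc2a3, is phosphorylated by hexokinases and is split into trioses that end as pyruvate. Pyruvate is reduced to lactate by lactate dehydrogenase and exported, or passes to the mitochondria through pyruvate dehydrogenase, which pyruvate dehydrogenase kinases hold back. When oxygen is low, HIF proteins escape hydroxylation and degradation, bind sites with the core ACGTG or GCGTG, and raise many of these genes together with others such as Vegfa, Bnip3 and Egln3. In the elongating embryo, glycolytic activity has been described as graded along the presomitic mesoderm (PSM), the tissue that segments into somites.

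The promoter sequences of 6 members are shown because their levels carry the comparisons between days and with cell number. Each is the 250 bases before the RefSeq start on GRCm38.p6, 5′ to 3′ in the direction of transcription, with matches to ACGTG or GCGTG on either strand in capitals. The windows are chr7:46845554-46845803 (plus strand), chrX:106186850-106187099 (plus strand), chr7:138909507-138909756 (minus strand), chr11:120948817-120949066 (plus strand), chr2:71872974-71873223 (plus strand) and chr6:124814159-124814408 (minus strand). For Ldha and Pdk1, which have further starts, the first window is printed.
Ldha: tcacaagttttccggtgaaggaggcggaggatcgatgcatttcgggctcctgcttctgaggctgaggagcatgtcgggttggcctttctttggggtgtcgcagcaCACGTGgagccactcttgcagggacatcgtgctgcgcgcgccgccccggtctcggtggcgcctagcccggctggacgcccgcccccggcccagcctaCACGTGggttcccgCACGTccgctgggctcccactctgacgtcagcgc
Pgk1: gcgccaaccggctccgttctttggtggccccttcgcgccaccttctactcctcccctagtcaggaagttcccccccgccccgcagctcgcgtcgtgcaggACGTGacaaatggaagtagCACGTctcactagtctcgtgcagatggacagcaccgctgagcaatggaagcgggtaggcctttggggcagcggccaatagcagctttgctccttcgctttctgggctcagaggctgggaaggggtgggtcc
Bnip3: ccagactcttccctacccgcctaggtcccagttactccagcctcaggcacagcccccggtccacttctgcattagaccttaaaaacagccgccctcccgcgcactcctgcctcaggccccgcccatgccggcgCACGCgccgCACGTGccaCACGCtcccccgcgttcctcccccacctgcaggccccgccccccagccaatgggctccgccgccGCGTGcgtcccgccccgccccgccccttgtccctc
Slc16a3: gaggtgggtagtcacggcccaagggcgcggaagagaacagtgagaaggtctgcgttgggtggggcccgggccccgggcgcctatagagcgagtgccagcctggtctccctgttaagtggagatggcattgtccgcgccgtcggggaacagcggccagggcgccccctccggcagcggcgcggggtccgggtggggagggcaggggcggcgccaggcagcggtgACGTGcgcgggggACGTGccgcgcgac
Pdk1: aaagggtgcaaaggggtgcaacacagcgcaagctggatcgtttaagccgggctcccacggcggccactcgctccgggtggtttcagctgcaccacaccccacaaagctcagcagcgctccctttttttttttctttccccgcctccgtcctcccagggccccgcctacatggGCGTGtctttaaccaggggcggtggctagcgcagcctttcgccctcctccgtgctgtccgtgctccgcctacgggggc
Tpi1: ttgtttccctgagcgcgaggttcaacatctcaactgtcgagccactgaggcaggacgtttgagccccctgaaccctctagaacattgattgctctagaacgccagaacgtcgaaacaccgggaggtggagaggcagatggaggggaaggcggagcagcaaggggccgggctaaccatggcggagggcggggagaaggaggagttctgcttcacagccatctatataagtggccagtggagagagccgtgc
The Ldha window held 3 separate matches, 2 of which read CACGTG and so match on both strands. Pgk1 and Slc16a3 held 2 matches each, Bnip3 4, Pdk1 1 and Tpi1 none. RefSeq windows were found for 31 members, 45 windows in all, and 36 of them (80.0%) held a match, against 38.6% of all 32851 promoter windows of the same length. By gene, 28 of the 31 matched members had a match in at least 1 window and 19 had 2 or more in 1 window, against 41.5% and 15.2% of all genes. The members without a match were Eno2, Gpi1 and Tpi1. The shares were not matched for base composition, and a match describes letters in a window, not a bound site.

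All gastruloids came from the wild-type E14Tg2A embryonic stem cell line, a single line, seeded at 300 cells per well, aggregated for 48 hours and given a pulse of 3 µM CHIR99021, a GSK3 inhibitor that activates WNT signalling. The study asked how much single gastruloids differ from each other, and used MULTI-seq, in which lipid-anchored barcodes mark the cells of each gastruloid before pooling for 10x Genomics 3′ sequencing. MULTI-seq 1 held 24 day 5 gastruloids. MULTI-seq 2 held day 4 and day 4.5 gastruloids, of which 11 and 12 with at least 30 cells were used from the pool with gastruloid calls. MULTI-seq 3 had 3 pools, with 24 gastruloids of day 3, with 16 each of days 3.5 and 4, and with 16 each of days 4.5 and 5. A further experiment without gastruloid barcodes (10X) gave 1 lane each at day 3 and day 4. Representative gastruloids had been picked by the submitters, and the gastruloid was the replicate. Days compared within an experiment shared a pool and its lanes, and the labels do not say whether their gastruloids came from separate cultures, so p-values measure the spread between these gastruloids.

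The analysis used 77674 cells, 53730 of them assigned to 1 of 135 gastruloids, under the 25 cluster names of the submitters' annotation. The lanes held 64703013 to 307883815 UMIs. Libraries of MULTI-seq 3 had median mitochondrial shares of 1.94 to 2.26% and 26466 to 38443 UMIs per cell, against 4.85 to 5.48% and 8287 to 27116 in the other lanes. Barcodes shared with another lane were carried by 1471 cells (1.89%). The names of 8 of the 25 clusters (Early and Late Spinal Cord, the neuromesodermal progenitors or NMPs, Caudal Epiblast, Mature Somites, and Early Posterior, Late Posterior and Late Anterior PSM) were checked against marker genes at day 4 of MULTI-seq 3. All but Caudal Epiblast and Early Posterior PSM were also checked at day 5 of MULTI-seq 3 and MULTI-seq 1. In these the markers were higher inside than outside the named clusters except Irx3 (Early Spinal Cord, MULTI-seq 3 day 4), Fgf8 (Early Posterior PSM, day 4), Sox1 (Early Spinal Cord, MULTI-seq 1) and Sox2 (NMPs, day 5 in both experiments). The other names, among them Mature Endoderm, Somites, Early Anterior PSM and Head Mesoderm, and those of MULTI-seq 2 were taken as deposited and not checked.

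The 33 genes together took up 7939 ± 229 CPM (a gene's UMI count scaled to the same total in every gastruloid; mean ± SD, n = 24) in MULTI-seq 3 gastruloids at day 3. The summed level had a mean of 7207 ± 329 in the day 3.5 group and 7732 ± 753 in the day 4 group that shared its pool, then 6951 ± 606 (day 4.5) and 8296 ± 633 (day 5), with 16 gastruloids each. In MULTI-seq 2 the sum was 7611 ± 769.6 at day 4 (n = 11) and 7864 ± 924 at day 4.5 (n = 12), and in MULTI-seq 1 11386 ± 761 at day 5 (n = 24). The MULTI-seq 1 gastruloids lay highest, and overlapped only with the top of day 5 of MULTI-seq 3 and of day 4.5 of MULTI-seq 2. These sums were scaled by total UMIs alone. By that scaling the median log2 difference of all genes at day 5, MULTI-seq 3 less MULTI-seq 1, was itself -0.25. The most abundant members, Gapdh and Ldha first, also weigh most in the sum. Single members took different courses over the days. Eno1, the widely expressed enolase, stood at 1038 ± 44.8 CPM at day 3 and 718 ± 45.8 at day 5. Pgk1, the kinase of the first ATP-yielding step, stood at 396 ± 19.1 on day 3, 362 ± 40.6 on day 3.5 and 557 ± 70.7 on day 5. Slc2a3, a high-affinity glucose transporter, stood at 55.6 ± 15.9 at day 3 and 171 ± 74.9 at day 3.5. Days 3, 3.5 to 4 and 4.5 to 5 were in separate pools, so only days within a pool were tested against each other. In the 10X lanes, which have no replicate, Ldha was at 1510.1 CPM at day 3 and 1585 at day 4, and Egln3 at 29.4 and 8.81.

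**Figure D1:**
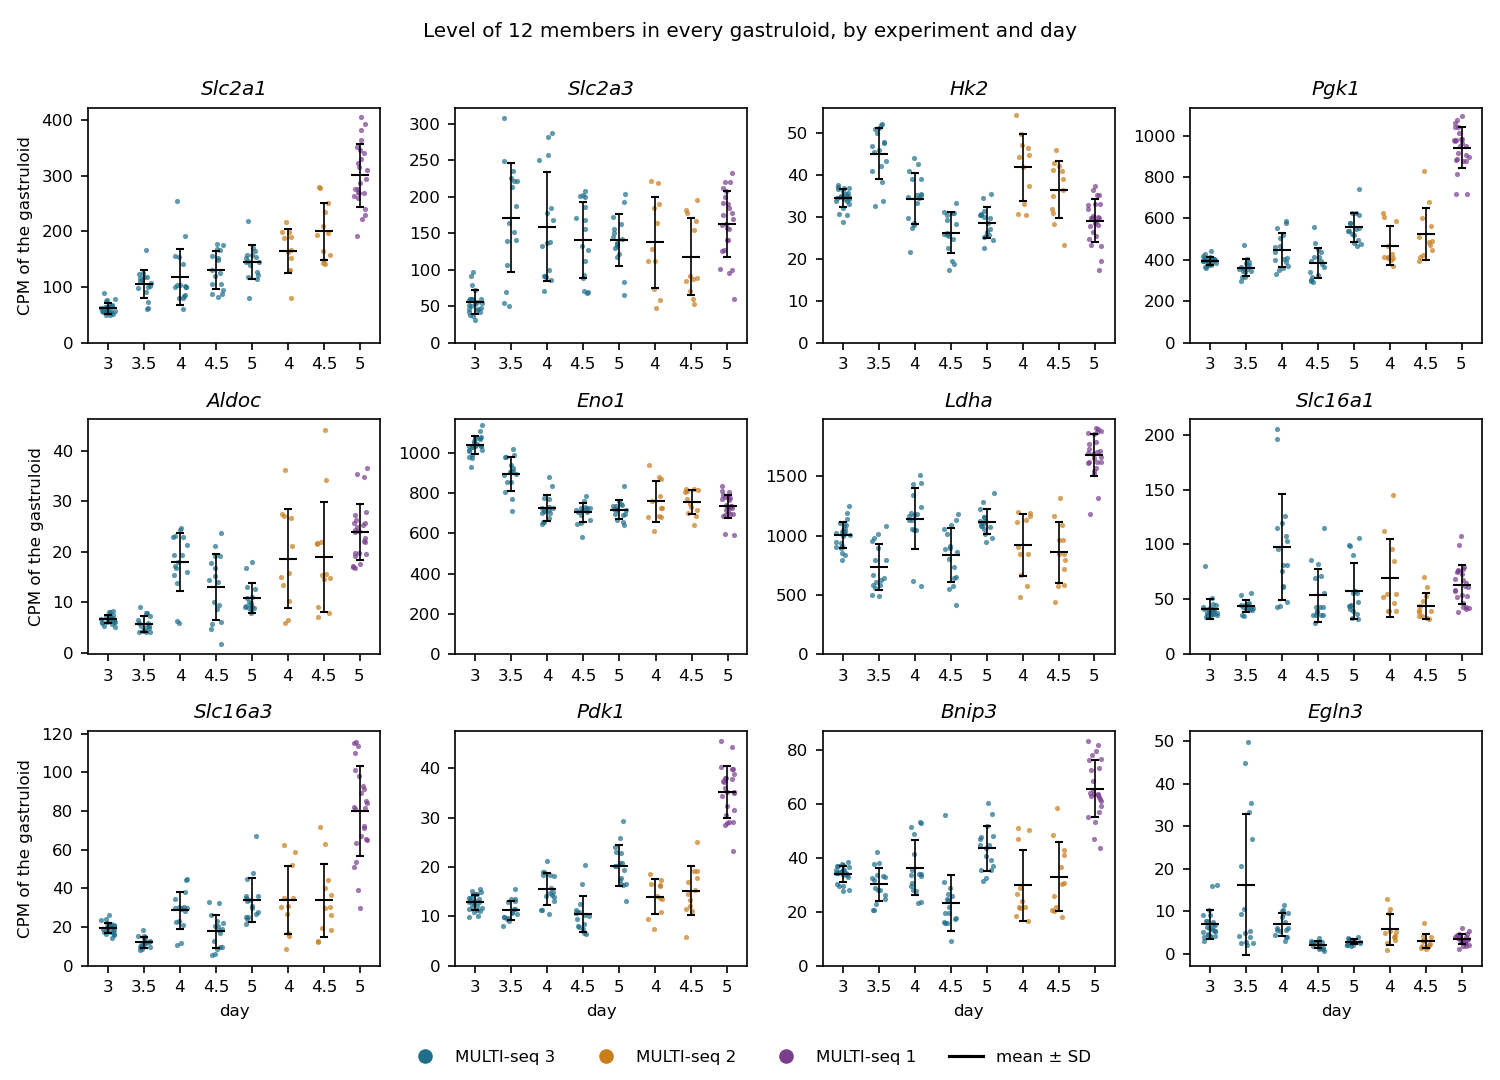
Level of 12 members in CPM (vertical axes) in each gastruloid by day, with colours for the 3 MULTI-seq experiments, points for gastruloids and bars for mean ± SD. The MULTI-seq 1 gastruloids at day 5 lie higher than those of MULTI-seq 3 for Slc16a3, with medians of 81.9 and 32.1 CPM and some overlap, while Egln3 spreads most at day 3.5, from 2.24 to 49.9 CPM.

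Between days 3.5 and 4 of MULTI-seq 3, members of the lactate branch and several HIF targets rose, while others, among them Egln3, Ddit4, Hk2 and Eno1, fell. Of the 33 members 23 passed edgeR's quasi-likelihood test with Benjamini-Hochberg adjustment over all genes, 16 higher and 7 lower at day 4. This is against a background of 60.4% of all 13262 genes tested (31.1% higher, 29.2% lower), and the members' median log2 difference of 0.14 compares with 0.0088 over all genes. The share of members that passed, 23 of 33, was near the background. By role, the lactate and pyruvate branch had 4 higher and 1 lower of 6, upper glycolysis 4 higher and 1 lower of 8, lower glycolysis 4 higher and 2 lower of 7, the other HIF targets 3 higher and 2 lower of 8, and uptake and hexokinases 1 higher and 1 lower of 4.

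Slc16a3, the lactate exporter of glycolytic tissues, had a median of 29.6 (range 10.8 to 44.6) CPM at day 4 and 11.9 (range 8.11 to 18.5) at day 3.5, with a log2 difference of 1.18 (SE 0.157, edgeR adjusted p = 1.86e-07). Slc16a1, the other main monocarboxylate transporter, stood at 88.9 (range 42.6 to 205) against 42.9 (range 34.7 to 56.1), with a log2 difference of 1.12 (SE 0.173, edgeR adjusted p = 1.92e-06). For both genes 14 or 15 of 16 day 4 gastruloids lay above the day 3.5 median, but the ranges overlapped. Ldha, the lactate dehydrogenase subunit that favours lactate production, stood at 1172 (range 573 to 1511) against 658 (range 492 to 1080.0), with a log2 difference of 0.60 (SE 0.132, edgeR adjusted p = 0.000237). Aldoc, the aldolase best known from brain, stood at 18.6 (range 5.80 to 24.8) against 5.29 (range 4.02 to 9.04) and had the largest difference of the set, at 1.61 (SE 0.172, edgeR adjusted p = 4.96e-09). All 16 day 4 gastruloids exceeded the day 3.5 median of Aldoc, with an overlap at the low end. Hk1, a hexokinase, Pdk1, a kinase that inhibits pyruvate dehydrogenase, and Eno3, the muscle enolase, rose by 0.45, 0.45 and 0.44 on the log2 scale (edgeR adjusted p = 0.000346, 0.000155 and 0.0316).

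Among the HIF targets, Ankrd37 stood at 7.31 (range 5.25 to 10.7) CPM against 3.47 (range 2.60 to 4.46), with a log2 difference of 1.06 (SE 0.0959, edgeR adjusted p = 2.73e-10), and the ranges did not overlap. P4ha1, a subunit of the enzyme that hydroxylates collagen prolines, stood at 42.6 (range 20.1 to 54.4) against 17.7 (range 12.7 to 24.1), with a log2 difference of 1.13 (SE 0.113, edgeR adjusted p = 1.42e-09). Vegfa, the vascular growth factor, stood at 29.5 (range 12.5 to 42.2) against 13.6 (range 12.2 to 15.6), with a log2 difference of 1.00 (SE 0.120, edgeR adjusted p = 3.75e-08). In both genes the day 3.5 values were tight and nearly all day 4 gastruloids lay above them. A pair of members of the same group moved the other way. Egln3, a HIF prolyl hydroxylase that is itself a HIF target, stood at 6.04 (range 3.02 to 11.6) against 7.48 (range 2.24 to 49.9), with a log2 difference of -1.28 (SE 0.395, edgeR adjusted p = 0.00592). Ddit4, an inhibitor of mTORC1 signalling, stood at 87.3 (range 62.1 to 146) against 128 (range 97.97 to 155), with a log2 difference of -0.51 (SE 0.0905, edgeR adjusted p = 1.64e-05). The Egln3 medians were close, 7 of 16 day 4 gastruloids lay above the day 3.5 median, and the day 3.5 gastruloids spread far upward. Hk2, a hexokinase, and Eno1 were lower in all 16 day 4 gastruloids than the day 3.5 medians, with log2 differences of -0.41 and -0.33 (edgeR adjusted p = 5.89e-05 and 1.27e-07).

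Cell type make-up and cell number moved with this comparison. The median share of neural cells per gastruloid was 43.9% at day 3.5 and 1.18% at day 4, and the median number of cells recovered was 288 and 854. In whole-gastruloid sums a change in the mix of cell types and a change within cells cannot be told apart. With the neural share as a covariate 21 members passed. With the log2 number of recovered cells as a covariate 6 passed, 4 higher and 2 lower, and since day and cell number moved together, this fit separates them only in part. In that fit the estimates of Ldha, Pfkp, Pgam1 and Pgk1 turned to -0.021, -0.13, -0.0042 and -0.046 on the log2 scale. These covariates, and scaling by total UMIs alone, were chosen after seeing the data. The share of all genes that passed with each covariate is not given here, so the lower counts are not read as particular to the members. Scaling by total UMIs gave 17 higher and 5 lower members.

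Between days 4.5 and 5 of MULTI-seq 3 the change had 1 direction: 19 of 33 members rose and none fell. Over all 12298 genes tested 13.5% passed, 6.35% higher and 7.11% lower, and the median log2 difference was 0.32 for the members and -0.00068 for all genes. Of the other HIF targets 6 of 8 rose, of upper glycolysis 5 of 8, of lower glycolysis 5 of 7, of the lactate and pyruvate branch 3 of 6 and of uptake and hexokinases 0 of 4. In all, 10 of the 15 upper and lower glycolysis genes rose, while the transporters and hexokinases that feed them did not pass the test: Slc2a1 had a median of 146 (range 79.5 to 219) CPM at day 5 and 128 (range 82.1 to 177) at day 4.5, with a log2 difference of 0.14 (edgeR adjusted p = 0.491).

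Pdk1 had a median of 20.2 (range 13.0 to 29.4) CPM at day 5 and 10.1 (range 6.40 to 20.5) at day 4.5, with a log2 difference of 0.94 (SE 0.132, edgeR adjusted p = 1.66e-05). Slc16a3 stood at 32.1 (range 21.7 to 67.1) against 18.8 (range 5.43 to 32.98), with a log2 difference of 0.92 (SE 0.208, edgeR adjusted p = 0.00308). Bnip3, a receptor for the removal of mitochondria, stood at 44.3 (range 31.5 to 60.6) against 20.8 (range 9.40 to 56.1), with a log2 difference of 0.89 (SE 0.154, edgeR adjusted p = 0.000209). In all 3 genes every day 5 gastruloid lay above the day 4.5 median, and the ranges overlapped through the highest day 4.5 gastruloids. Eno3 stood at 28.5 (range 18.0 to 39.1) against 14.3 (range 8.46 to 28.9), with a log2 difference of 0.82 (SE 0.148, edgeR adjusted p = 0.000332). Pgk1 stood at 544 (range 468 to 741) against 387 (range 295 to 557), with a log2 difference of 0.52 (SE 0.0790, edgeR adjusted p = 4.47e-05). Ldha stood at 1102 (range 946 to 1362) against 872 (range 413 to 1181), with a log2 difference of 0.40 (SE 0.107, edgeR adjusted p = 0.0107). The same pattern held here, with all 16 day 5 gastruloids above the day 4.5 median of each gene. P4ha1, Ddit4, Tpi1 (triose phosphate isomerase), Pfkfb3 (which makes the main activator of phosphofructokinase) and Pfkl (a phosphofructokinase subunit) rose by 0.60, 0.47, 0.43, 0.43 and 0.39 on the log2 scale (edgeR adjusted p between 5.57e-05 and 0.0285). Ndrg1, a hypoxia-responsive gene, rose by 0.96, from a median of 0.688 (range 0 to 1.503) to 1.44 (range 0.459 to 2.45) CPM, levels near the lower limit of these counts.

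Gpi1, the glucose phosphate isomerase, Gapdh, the triose dehydrogenase, and Ddit4 were lower at day 4 than at day 3.5 but higher at day 5 than at day 4.5. The log2 differences were -0.20 and 0.21 for Gpi1, -0.072 and 0.14 for Gapdh and -0.51 and 0.47 for Ddit4, all past the edgeR threshold. Gpi1 had medians of 164 (range 144 to 181) and 140.0 (range 128 to 165) CPM at days 3.5 and 4 and 135 (range 119 to 162) and 159.8 (range 135 to 195) at days 4.5 and 5, with overlap in both steps. The neural share was 21.2% at day 4.5 and 29.7% at day 5, and 21 members passed with it as a covariate. The median number of cells recovered was 279 at day 4.5 and 697 at day 5. With the number of cells as a covariate 1 member passed, with the same limits: the covariate separates day and cell number only in part. The share of all genes in that fit is not given here, so the fall is not read as particular to the members. Scaling by total UMIs alone gave 20 members, all higher, and moved the share of higher calls among all genes called from 47.2% to 58.2%.

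**Figure D2:**
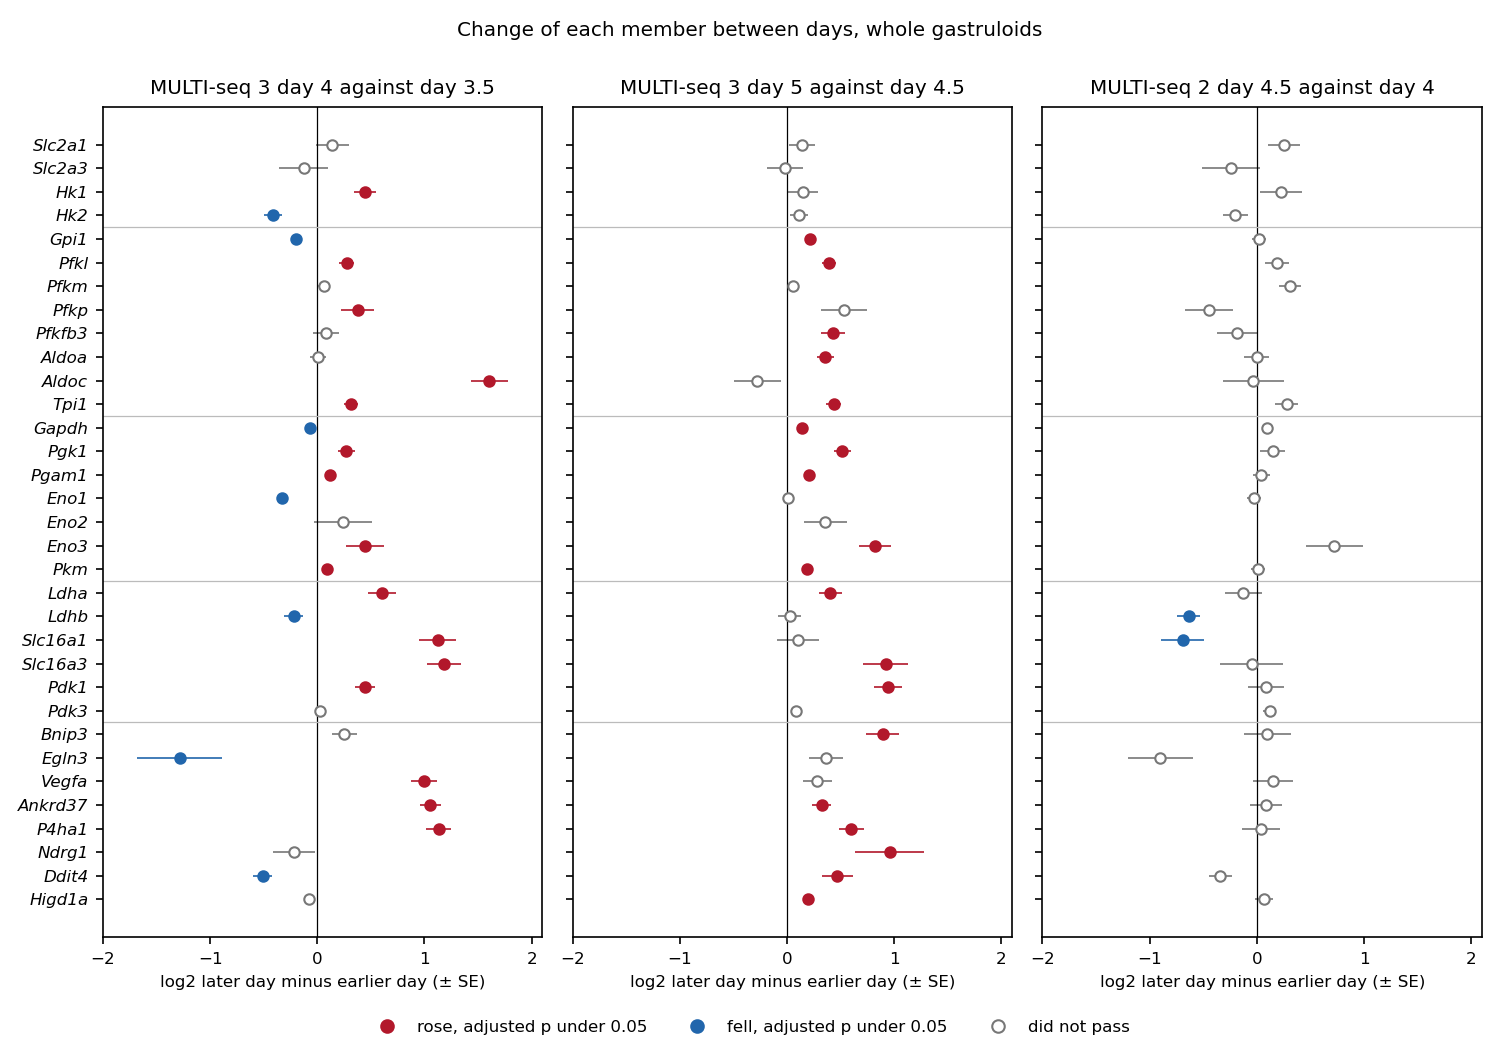
Log2 difference between the later and the earlier day (horizontal axes, with SE) of each member, ordered by role, in the 3 comparisons of whole gastruloids, with red for rose, blue for fell and grey for not past the edgeR threshold. The points for day 5 against day 4.5 include 19 red and no blue, those for day 4 against day 3.5 16 red and 7 blue, and those of MULTI-seq 2 2 blue.

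In MULTI-seq 2, day 4.5 against day 4, 2 of 31 tested members passed and both were lower, against 7.36% of 11064 genes tested (3.03% higher, 4.33% lower). Ldhb, the subunit of lactate dehydrogenase that favours pyruvate, had a median of 103 (range 57.5 to 129.5) CPM at day 4.5 and 143 (range 118 to 183) at day 4, with a log2 difference of -0.64 (SE 0.106, edgeR adjusted p = 0.000712). Slc16a1 stood at 39.9 (range 32.3 to 70.1) against 54.7 (range 39.2 to 145), with a log2 difference of -0.69 (SE 0.203, edgeR adjusted p = 0.0357). All 12 day 4.5 gastruloids lay below the day 4 median of Ldhb and 10 of 12 below that of Slc16a1, with overlapping ranges. Slc16a1 had risen between days 3.5 and 4 of MULTI-seq 3. The neural share was 2.5% at day 4 and 21.7% at day 4.5. The directions depended on the setting: 4 members passed with DESeq2, all lower, 4 with at least 100 cells per gastruloid (1 higher, 3 lower), 4 with the neural share as a covariate (2 higher, 2 lower) and 4 with total UMIs as the only scaling (2 higher, 2 lower), which moved the share of higher calls among all genes called from 41.2% to 57.4%. With the number of cells as a covariate 10 passed (1 higher, 9 lower), again without the share of all genes. Eno2 and Ndrg1 were filtered out for low counts.

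The same day also differed between experiments. At day 5, 22 of 32 tested members differed between MULTI-seq 3 and MULTI-seq 1, 5 higher and 17 lower in MULTI-seq 3. This is against 63.7% of all 11718 genes (30% higher, 33.7% lower). The share that differed was thus near that of all genes, but the members called were mostly lower, unlike the even split of all genes. With total UMIs as the only scaling, which moved the median log2 difference of all genes from -0.021 to -0.25, 20 passed and all 20 were lower. The 5 called higher (Hk2, Eno1, Eno3, Ankrd37 and Higd1a) did not pass by that scaling, and the estimates of Hk2 and Eno1 then had the other sign (-0.030 and -0.032). Slc2a1 had a median of 146 (range 79.5 to 219) CPM in MULTI-seq 3 and 291 (range 191 to 405) in MULTI-seq 1, with a log2 difference of -0.83 (SE 0.0911, edgeR adjusted p = 1.14e-10). Slc16a3 stood at 32.1 (range 21.7 to 67.1) against 81.9 (range 29.7 to 116), with a log2 difference of -1.01 (SE 0.140, edgeR adjusted p = 3.61e-08). Every MULTI-seq 3 gastruloid lay below the MULTI-seq 1 median for both. Pgk1 stood at 544 (range 468 to 741) against 956 (range 715 to 1095), with a log2 difference of -0.53 (SE 0.0546, edgeR adjusted p = 2.1e-11). Pgam1, the phosphoglycerate mutase, stood at 633 (range 561 to 732) against 1060.4 (range 892 to 1155), with a log2 difference of -0.51 (SE 0.0324, edgeR adjusted p = 6.76e-18). The Pgam1 ranges did not overlap between the experiments, in CPM without TMM scaling. Pfkp, a phosphofructokinase subunit, Aldoc and Pdk1 were lower by log2 differences of -1.13, -0.92 and -0.57.

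At day 4, 13 of 33 members differed between MULTI-seq 3 and MULTI-seq 2 (4 higher, 9 lower), against 46.1% of all genes (23.0% higher, 23.1% lower). The share that differed was again near the background. Total UMIs as the only scaling gave 9 higher and 4 lower and moved the median of all genes from 0.016 to 0.18, so the calls at day 4 depend on the scaling. At day 4.5, 15 of 31 differed (2 higher, 13 lower), against 42.4% (21.1% higher, 21.3% lower), and 1 higher and 15 lower by total UMIs alone. The share that differed was near the background too, but the members called were mostly lower, unlike the even split of all genes. Slc2a1, Hk2, Gpi1, Pgam1, Pkm and Ldhb were lower in MULTI-seq 3 at both days, by log2 differences of -0.65, -0.44, -0.34, -0.29, -0.17 and -0.48 at day 4 and -0.57, -0.44, -0.27, -0.31, -0.24 and -0.52 at day 4.5. By total UMIs alone Pgam1 and Pkm no longer passed at day 4. With the number of cells as a covariate Hk2 had the other sign there (0.060). The numbers of cells at day 4 did not overlap, at 390 to 1397 in MULTI-seq 3 and 60 to 251 in MULTI-seq 2. That fit therefore cannot separate cell number from experiment, and nothing is read from it. Pfkfb3 was higher at both days, by 0.77 and 0.41. The mitochondrial share and the UMIs per cell differed between the same experiments (above), and their part in these differences was not tested.

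Cell types differed in which members they used. These levels are described without a test, because the clusters were made from the same genes. Mature Endoderm had the highest summed level in MULTI-seq 3 at days 4 and 5 and in MULTI-seq 1. It stood at 10956 ± 1364 (SD, n = 13) CPM at day 4 and 11906 ± 1509 (SD, n = 8) at day 5 of MULTI-seq 3, and at 14167 ± 1078 (SD, n = 3) in MULTI-seq 1. At day 5 of MULTI-seq 3, NMPs were lowest at 7371 ± 887 (SD, n = 14) and Late Anterior PSM second highest at 9379.5 ± 1469 (SD, n = 12). The same clusters took these places in MULTI-seq 1, with Late Anterior PSM at 13215 ± 1123 (SD, n = 14) and NMPs at 9856 ± 864 (SD, n = 20). The clusters between them, from Somites to Head Mesoderm in MULTI-seq 3, lay within about an SD of their neighbours. Only cells of clusters with at least 20 cells in a gastruloid entered.

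Glucose transporters split the clusters. Slc2a3 stood at 864 ± 154 (SD, n = 8) CPM in Mature Endoderm, 240.2 ± 27.5 (SD, n = 15) in Early Spinal Cord, 194 ± 23.6 (SD, n = 14) in NMPs and 165 ± 40.4 (SD, n = 8) in Late Spinal Cord at day 5 of MULTI-seq 3. In the paraxial clusters it stood at 18.8 ± 12.3 (SD, n = 15) in Late Posterior PSM, 10.2 ± 7.21 (SD, n = 12) in Late Anterior PSM, 8.74 ± 2.73 (SD, n = 10) in Somites and 6.82 ± 4.23 (SD, n = 16) in Mature Somites. The ranges of the neural and progenitor clusters did not meet those of the paraxial clusters. Slc2a1 ran from 204 ± 28.7 (SD, n = 15) in Early Spinal Cord to 37.9 ± 12.5 (SD, n = 16) in Mature Somites, with 597 ± 93.4 (SD, n = 8) in Mature Endoderm. At day 3.5, Slc2a3 was at 235 ± 36.0 (SD, n = 13) in Caudal Epiblast and 10.2 ± 3.84 (SD, n = 10) in Early Posterior PSM.

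The lactate transporters marked different clusters. Slc16a1 stood at 485 ± 85.8 (SD, n = 8) CPM in Mature Endoderm and at 47.3 ± 3.79 (SD, n = 8) in the next cluster, Late Spinal Cord. In MULTI-seq 1 it stood at 581 ± 94.7 (SD, n = 3) and 71.0 ± 6.83 (SD, n = 12), and at day 4 of MULTI-seq 3 at 602 ± 123 (SD, n = 13) in Mature Endoderm. The endoderm values lay far above every other cluster at both days. Slc16a3 was highest in the paraxial clusters, at 84.1 ± 39.2 (SD, n = 12) in Late Anterior PSM and 71.8 ± 27.7 (SD, n = 15) in Late Posterior PSM, and lowest in NMPs at 15.2 ± 9.79 (SD, n = 14). The PSM clusters overlapped with each other and with Somites, and NMPs overlapped with both spinal cord clusters.

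Vegfa stood at 119 ± 26.4 (SD, n = 10) CPM in Somites but at 22.5 ± 5.31 (SD, n = 16) in Mature Somites, and at 123 ± 37.5 (SD, n = 4) and 23.5 ± 9.99 (SD, n = 22) in MULTI-seq 1. In MULTI-seq 3 every Somites value exceeded every Mature Somites value. Eno3 had the reverse order, at 52.7 ± 9.74 (SD, n = 16) in Mature Somites and 10.4 ± 5.74 (SD, n = 10) in Somites. Egln3 was highest in the early mesoderm at day 3.5, at 57.7 ± 13.7 (SD, n = 10) in Early Posterior PSM and 45.1 ± 1.86 (SD, n = 3) in Early Nascent Mesoderm, against 2.67 ± 2.04 (SD, n = 13) in Primitive Streak. Ddit4 was highest in Late Posterior PSM at day 5, at 141 ± 46.4 (SD, n = 15) in MULTI-seq 3 and 160.4 ± 41.8 (SD, n = 20) in MULTI-seq 1.

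**Figure D3:**
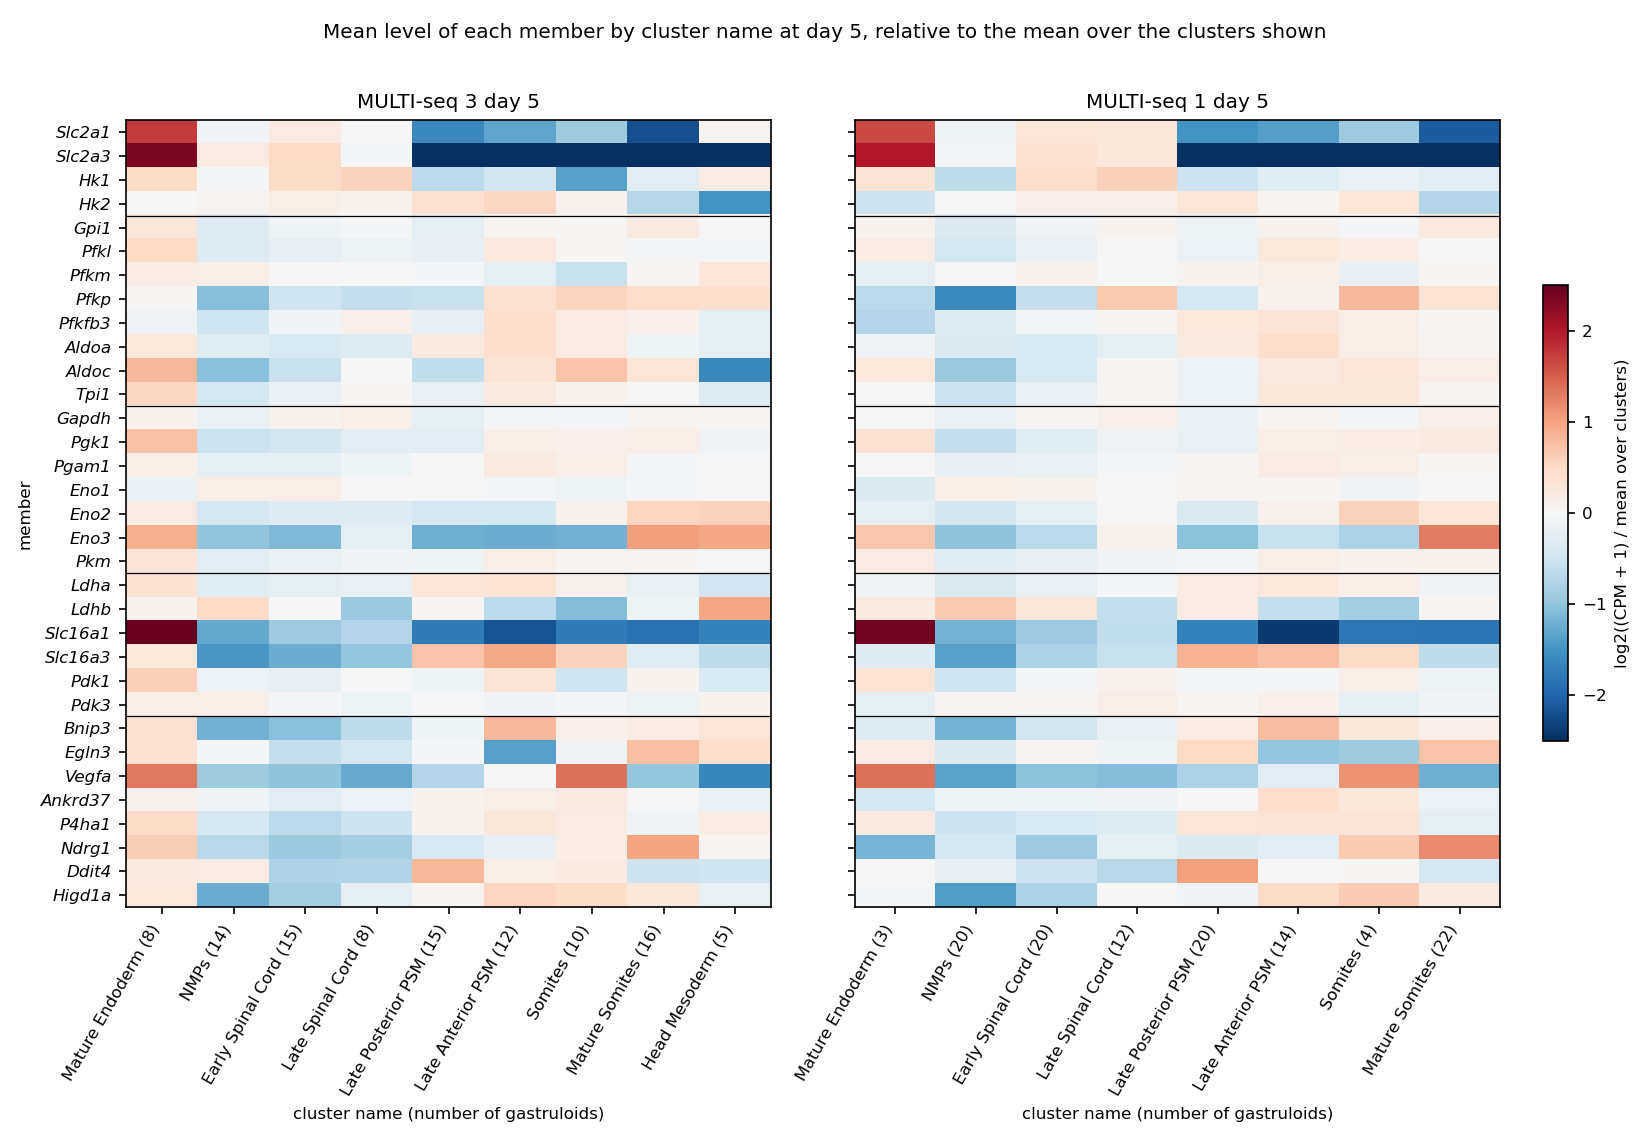
Mean CPM of each member in each cluster at day 5 relative to the mean over the clusters shown (colour, log2 scale), for MULTI-seq 3 and MULTI-seq 1, with members ordered by role and the number of gastruloids in brackets. Slc16a1 and Slc2a3 are darkest red in Mature Endoderm, where Slc2a3 had a mean of 864 CPM in MULTI-seq 3, and Slc2a3 is blue in the paraxial clusters.

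Posterior and anterior PSM cells of the same gastruloid were then set side by side, again as a description. Over 12 MULTI-seq 3 gastruloids at day 5, 13 of 28 members were lower and 3 higher in Late Posterior than in Late Anterior PSM in at least 90% of gastruloids, against 6.72% lower and 8.52% higher of all 8814 genes with a mean of at least 5 CPM. Over 13 MULTI-seq 1 gastruloids it was 11 lower and 3 higher of 30, against 5.76% and 4.71%. At day 4 of MULTI-seq 3 (8 gastruloids) 5 were lower and 4 higher of 30, against 7.68% and 6.51%, nearly in balance. At the same day 11 of 30 were lower and 2 higher in Early Posterior than in Early Anterior PSM over 13 gastruloids, against 8.59% and 7.49%. Pgk1 was at 499 ± 119.7 against 668 ± 185 CPM and lower in all 12 MULTI-seq 3 pairs, as were Gpi1, Pfkl and Pkm. Bnip3 was at 45.4 ± 24.5 against 89.6 ± 45.5 and lower in 11 of 12. Ddit4 and Ldhb went the other way in all 12, at 141 ± 51.7 against 87.7 ± 59.1 and 73.4 ± 6.68 against 45.6 ± 7.62. In MULTI-seq 1 Pgk1, Pfkl, Pkm and Bnip3 were lower in all 13 gastruloids, and Ldhb and Ddit4 higher in 12 of 13. At day 5 of both experiments the posterior side thus had less Pgk1, Pfkl and Pkm and more Ddit4 and Ldhb than Late Anterior PSM.

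Against Mature Somites the balance of Late Posterior PSM changed with the group. In MULTI-seq 3 it was 3 higher and 14 lower of 30 members over 6 gastruloids at day 4 (background 14.6% and 17.3%), 7 and 7 of 27 over 9 at day 4.5 (11.1% and 12.7%), and 7 and 5 of 28 over 15 at day 5 (14.5% and 11.8%). In MULTI-seq 2 at day 4.5 it was 3 and 10 of 27 over 7 gastruloids (11.9% and 12.3%), and in MULTI-seq 1 at day 5 6 and 1 of 30 over 20 (9.26% and 7.28%).

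Between Late Spinal Cord and Mature Somites of the same gastruloid, 4 of 29 members were higher and 7 lower in at least 90% of 8 MULTI-seq 3 gastruloids, against 19.9% and 20.8% of all genes, a share near the background. Slc2a3 was at 165 ± 40.4 against 9.48 ± 4.55 CPM and higher in the spinal cord of all 8. Slc16a3 and P4ha1 were lower there in all 8, at 21.6 ± 10.7 against 42.1 ± 8.61 and 28.1 ± 5.63 against 42.4 ± 5.47. Over 10 MULTI-seq 1 gastruloids 4 of 30 were higher and 1 lower, against 12.4% and 12.1%.

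Within cell types, the rise from day 4.5 to day 5 was present in 3 of the 4 clusters that could be tested (at least 20 cells in at least 8 gastruloids per day). In Early Spinal Cord 15 of 29 members rose and none fell, against 12.3% of all genes (6.33% higher, 5.99% lower). In Late Posterior PSM 15 of 27 rose and none fell, against 6.15% (3.14% higher, 3.02% lower). In Mature Somites 22 of 31 rose and 1 fell, against 14.6% (6.94% higher, 7.66% lower). In NMPs 1 of 26 rose and 1 fell, against 5.98% (2.62% higher, 3.36% lower). The members' median log2 differences were 0.32, 0.33, 0.34 and 0.045 in that order, with medians of all genes between 0.0020 and 0.0033.

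Pdk1 passed in all 4 clusters, in NMPs by a small margin. Its medians at day 5 and day 4.5 were 16.7 (range 5.98 to 24.0) and 8.95 (range 5.69 to 14.8) CPM in Early Spinal Cord, with a log2 difference of 0.97 (SE 0.157, edgeR adjusted p = 2.47e-05). In Late Posterior PSM they were 14.6 (range 6.40 to 37.6) and 8.32 (range 4.38 to 14.9), a log2 difference of 0.89, in Mature Somites 19.0 (range 8.95 to 28.8) and 9.82 (range 5.69 to 18.2), a log2 difference of 0.89. In NMPs they were 15.1 (range 10.2 to 27.5) and 10.7 (range 8.51 to 14.1), with a log2 difference of 0.60 (SE 0.187, edgeR adjusted p = 0.045). Slc16a3 and Eno3 had larger estimates in NMPs, 0.80 and 0.73, that did not pass (edgeR adjusted p = 0.16 and 0.0928). The ranges overlapped in every cluster. Aldoa, Bnip3, Ddit4, Eno3, Ldha, P4ha1, Pfkl, Pgam1, Pgk1, Slc16a3 and Tpi1 passed in the other 3 clusters, with Slc16a3 between 0.65 and 1.46 and Ldha between 0.28 and 0.58 on the log2 scale.

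Other members passed in fewer clusters. Slc2a3 rose in the 2 paraxial clusters: from a median of 8.32 (range 5.18 to 18.9) to 14.6 (range 7.39 to 45.2) CPM in Late Posterior PSM, with a log2 difference of 1.04 (SE 0.283, edgeR adjusted p = 0.0167), and from 3.25 to 5.41 in Mature Somites, with a log2 difference of 0.98 (edgeR adjusted p = 0.0488). In Early Spinal Cord and NMPs, where its level was far higher, the differences were -0.056 and 0.034 and did not pass. Slc2a1 rose in Late Posterior PSM, from a median of 34.5 (range 26.4 to 51.7) to 55.4 (range 26.3 to 78.0) CPM, with a log2 difference of 0.74 (SE 0.122, edgeR adjusted p = 3.14e-05). Hk2 rose in Mature Somites, from 10.5 (range 4.24 to 17.6) to 18.2 (range 14.2 to 27.3), with a log2 difference of 0.84 (SE 0.134, edgeR adjusted p = 2.41e-05). Aldoc fell in Mature Somites, from 23.8 (range 14.6 to 42.4) to 13.8 (range 6.21 to 30.04), with a log2 difference of -0.92 (SE 0.212, edgeR adjusted p = 0.00233). Higd1a, a mitochondrial protein induced by hypoxia, fell in NMPs, from 94.2 (range 62.9 to 119.6) to 71.1 (range 59.9 to 92.1), with a log2 difference of -0.41 (SE 0.0867, edgeR adjusted p = 0.00158), and rose in Mature Somites by 0.34. All these ranges overlapped between days. With the number of cells of the gastruloid as a covariate 2 members passed in Early Spinal Cord, 1 in Late Posterior PSM, 5 in Mature Somites and 1 in NMPs. These counts have the limits given for whole gastruloids. The NMP count was 0 or 1 when any of the 3 lanes was left out.

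**Figure D4:**
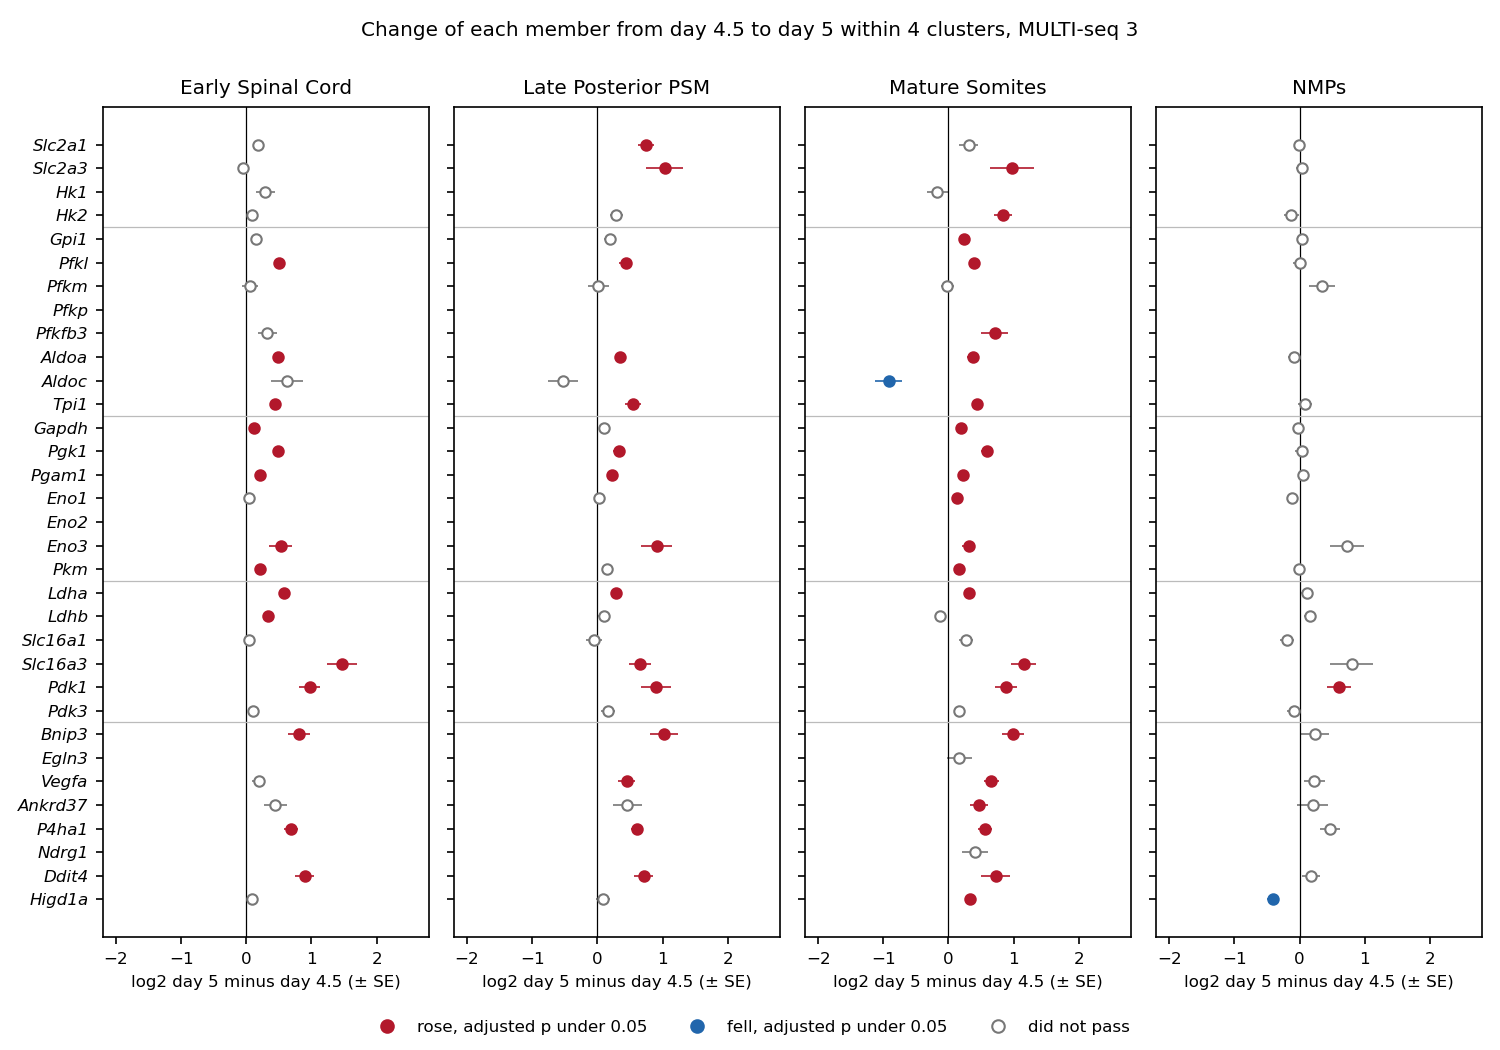
Log2 difference between day 5 and day 4.5 (horizontal axes, with SE) of each member within 4 clusters of MULTI-seq 3, ordered by role, with red for rose, blue for fell and grey for not past the edgeR threshold. Red points number 15 in Early Spinal Cord, 15 in Late Posterior PSM, 22 in Mature Somites and 1 in NMPs.

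The difference of the day effect between clusters was tested itself, with the gastruloid as a block. Between NMPs and Mature Somites it passed for 7 of 29 members (background 4.46%): Hk2, Aldoa, Gapdh, Pgk1, Eno1 and Higd1a had a lower day effect in NMPs than in Mature Somites. The other was Aldoc, which was filtered out for low counts within NMPs and entered through Mature Somites, so its call is not read as a difference. Between Early Spinal Cord and Mature Somites it passed for Hk2 and Aldoc, 2 of 32 (4.06%), and between Late Posterior PSM and Mature Somites for Slc16a3, 1 of 30 (4.72%). The first of these last counts was 3 without lane A and 0 without lane C, and the second 0 without lane A or lane B and 3 without lane C. For NMPs no fit without a lane could be made.

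From day 3.5 to day 4, 2 clusters could be tested. In Early Posterior PSM 8 of 31 members rose and 8 fell, against 36.9% of all genes (18.3% higher, 18.6% lower). Egln3 fell from a median of 61.0 (range 34.2 to 73.0) to 23.4 (range 13.3 to 29.2) CPM, with a log2 difference of -1.40 (SE 0.0982, edgeR adjusted p = 1.73e-12), without overlap between days. Slc16a1 fell from 34.7 (range 30.1 to 58.2) to 23.7 (range 20.9 to 33.8), with a log2 difference of -0.69 (SE 0.0844, edgeR adjusted p = 8.51e-08), although it rose over whole gastruloids. The Mature Endoderm cluster, with its high Slc16a1, reached 20 cells in 13 day 4 gastruloids and is not among the clusters that did so at day 3.5, and its part in the rise over whole gastruloids was not tested. Aldoc rose from 7.33 (range 1.77 to 12.4) to 21.1 (range 13.6 to 29.4), with a log2 difference of 1.39 (SE 0.139, edgeR adjusted p = 1.79e-09), without overlap. Slc16a3, Hk1, Ankrd37, Pdk1, P4ha1, Bnip3 and Vegfa rose too, by 1.18, 1.08, 1.07, 0.74, 0.61, 0.55 and 0.50 on the log2 scale.

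In Caudal Epiblast 5 of 24 rose and 1 fell, against 18.8% of all genes (9.61% higher, 9.17% lower). P4ha1 rose from a median of 19.3 (range 14.0 to 26.0) to 25.6 (range 17.1 to 35.3) CPM, with a log2 difference of 0.40 (SE 0.108, edgeR adjusted p = 0.00818), Slc2a1, Pfkl, Pgk1 and Ddit4 by 0.30, 0.24, 0.23 and 0.21 on the log2 scale, and Eno1 fell by 0.19. Without lane C 3 members passed and without lane D 2. The day effect differed between Caudal Epiblast and Early Posterior PSM for 8 of 31 members (9.04% of all genes), but for 2 without lane B. Ldhb, Slc16a1, Gpi1 and Gapdh had the higher day effect in Caudal Epiblast and Slc16a3 in Early Posterior PSM. The other 3, Egln3, Aldoc and Hk1, were filtered out for low counts within Caudal Epiblast and entered through Early Posterior PSM, so their calls are not read as differences. With the number of cells as a covariate no member passed edgeR's test in Caudal Epiblast (1 at an unadjusted p under 0.05) and 9 in Early Posterior PSM. The limits given for whole gastruloids hold here too.

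Gastruloids of 1 day also differed in these genes with the number of cells recovered from them, a relation examined after seeing the data, in 8 fits on whole gastruloids and 28 within clusters, with p-values adjusted within each fit and not across them. The number recovered can depend on dissociation, barcoding and assignment and was not taken as a measure of gastruloid size. In Late Spinal Cord of MULTI-seq 1 (n = 12) 18 of 30 members rose with cell number and none fell, against 97 of 9598 genes (1.01%, 0.792% upward). The members' median slope was 0.42 log2 units per doubling of the number of cells, and that of all genes -0.0026. In Late Anterior PSM of MULTI-seq 3 (n = 12) 16 of 29 rose and none fell, against 62 of 8230 genes (0.753%), with median slopes of 0.51 and -0.0016.

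In Late Spinal Cord of MULTI-seq 1, Pgk1 ranged from 650 to 1611 CPM with a median of 831, with a slope of 0.60 (SE 0.0817, edgeR adjusted p = 1.87e-05). The 4 gastruloids with the most cells (509 to 655) held 1034 to 1611 CPM and the other 8 (199 to 449 cells) 650 to 876, without overlap. Ldha rose with a slope of 0.51 (SE 0.0663, edgeR adjusted p = 1.36e-05), Slc16a3 with 0.97 (SE 0.138, edgeR adjusted p = 3.78e-05). Slc2a1, Slc2a3, Pdk1 and Bnip3 rose with slopes of 0.45, 0.67, 0.77 and 0.61. In Late Anterior PSM of MULTI-seq 3, Pgk1 ranged from 482 to 1097 CPM with a median of 601, with a slope of 0.58 (SE 0.0898, edgeR adjusted p = 0.000509). Its 3 highest values were those of the 3 gastruloids with the most cells (834 to 1329). Ddit4 rose with a slope of 1.41 (SE 0.204, edgeR adjusted p = 0.000165), and Slc16a3 and Bnip3 with slopes of 1.00 and 0.91.

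Elsewhere fewer members passed. Early Spinal Cord of MULTI-seq 1 had 6 of 29 (0.184% of all genes, 0.151% upward), or 2 with DESeq2 and 1 without lane 2. Late Posterior PSM of MULTI-seq 3 had 4 of 28 (Slc2a1, Slc16a3, Pdk1 and Ddit4, against 0.0893%), or 0 with DESeq2, 2 without lane A and 9 without lane C. A further 3 day 5 fits had 1 each: NMPs of MULTI-seq 1 (0 without lane 1 or 3, and 3 without lane 2), Mature Somites of MULTI-seq 3 (0 without lane A or C) and Somites of MULTI-seq 3. The shares of all genes in these 3 were 0.013%, 0.0086% and 0.057%. By edgeR's quasi-likelihood test the other 5 of 12 day 5 fits and all 16 fits of clusters at other days had none, with 1 to 11 and 1 to 16 members at an unadjusted p under 0.05. No gene at all passed in those 5 day 5 fits, and 0 to 0.819% of all genes in the 16 others. The lack of calls there is thus not particular to the members. For the relation to cell number, the share of all genes at an unadjusted p under 0.05 is not given here. Among these, Late Posterior PSM of MULTI-seq 1 had 7 without lane 3. Every member that passed rose with cell number, and in 11 of the 12 day 5 fits the members' median slope lay above that of all genes. These 12 fits reuse the gastruloids of 2 experiments and are not separate. Of all genes called, 76 of 97 rose in Late Spinal Cord of MULTI-seq 1 and 55 of 62 in Late Anterior PSM of MULTI-seq 3. In whole gastruloids at day 4 of MULTI-seq 3 it was 600 of 1592. In whole gastruloids 15 of 33 passed at day 4 of MULTI-seq 3 (10.6% of all genes). At day 4.5 of MULTI-seq 2 it was 10 of 32 (2.15%), and at day 5 of MULTI-seq 1 Bnip3 alone (0.025%). None passed in the other 5, where 1 to 19 members had an unadjusted p under 0.05 (edgeR) and no gene at all passed. Some other settings gave higher counts, listed in the last section. For the other settings of these fits the share of all genes is not given here.

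Other measures moved with cell number. In Late Spinal Cord of MULTI-seq 1 the mitochondrial share fell with it (4.70 to 6.04%, Pearson's r = -0.77, Spearman's rho = -0.80, permutation p = 6e-05 for r, adjusted over 12 relations 0.00072, and r = -0.78 without the 2 gastruloids farthest from the median). The share of Late Spinal Cord cells in the gastruloid fell too (r = -0.72, rho = -0.71, permutation p = 0.00768, adjusted 0.0461, and r = -0.55 without the 2 farthest). UMIs per cell gave r = -0.33 (rho = -0.40, permutation p = 0.299), and r = -0.82 without the 2 farthest. In Late Anterior PSM of MULTI-seq 3 no such relation passed after adjustment, with r = -0.44 for the mitochondrial share, -0.67 for the share of cells and -0.10 for UMIs per cell. Without the 2 farthest these were -0.20, -0.31 and -0.52. The mitochondrial share in Early Spinal Cord of MULTI-seq 1 gave r = -0.47 (rho = -0.62, permutation p = 0.0401 for r, adjusted 0.139), and r = -0.75 without the 2 farthest. For Late Posterior PSM of MULTI-seq 3 it was r = -0.22, and 0.082 without them. The part of these measures in the relation was not tested directly. With the neural share as a further covariate 7 members passed in Late Spinal Cord and 4 in Late Anterior PSM, and without the 2 gastruloids farthest from the median 12 and 9. DESeq2 gave 9 in Late Anterior PSM. Leaving out lane 1, 2 or 3 left 10, 11 and 11 in Late Spinal Cord, and leaving out lane A left 10 in Late Anterior PSM. In whole gastruloids the counts at day 4 (MULTI-seq 3) and day 4.5 (MULTI-seq 2) fell to 0 with the neural share as a covariate. Both also fell to 0 without the 2 farthest gastruloids, and that of MULTI-seq 2 to 0 without lane 3. The share of all genes that passed in these other settings is not given here, so the falls are not read as particular to the members.

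**Figure D5:**
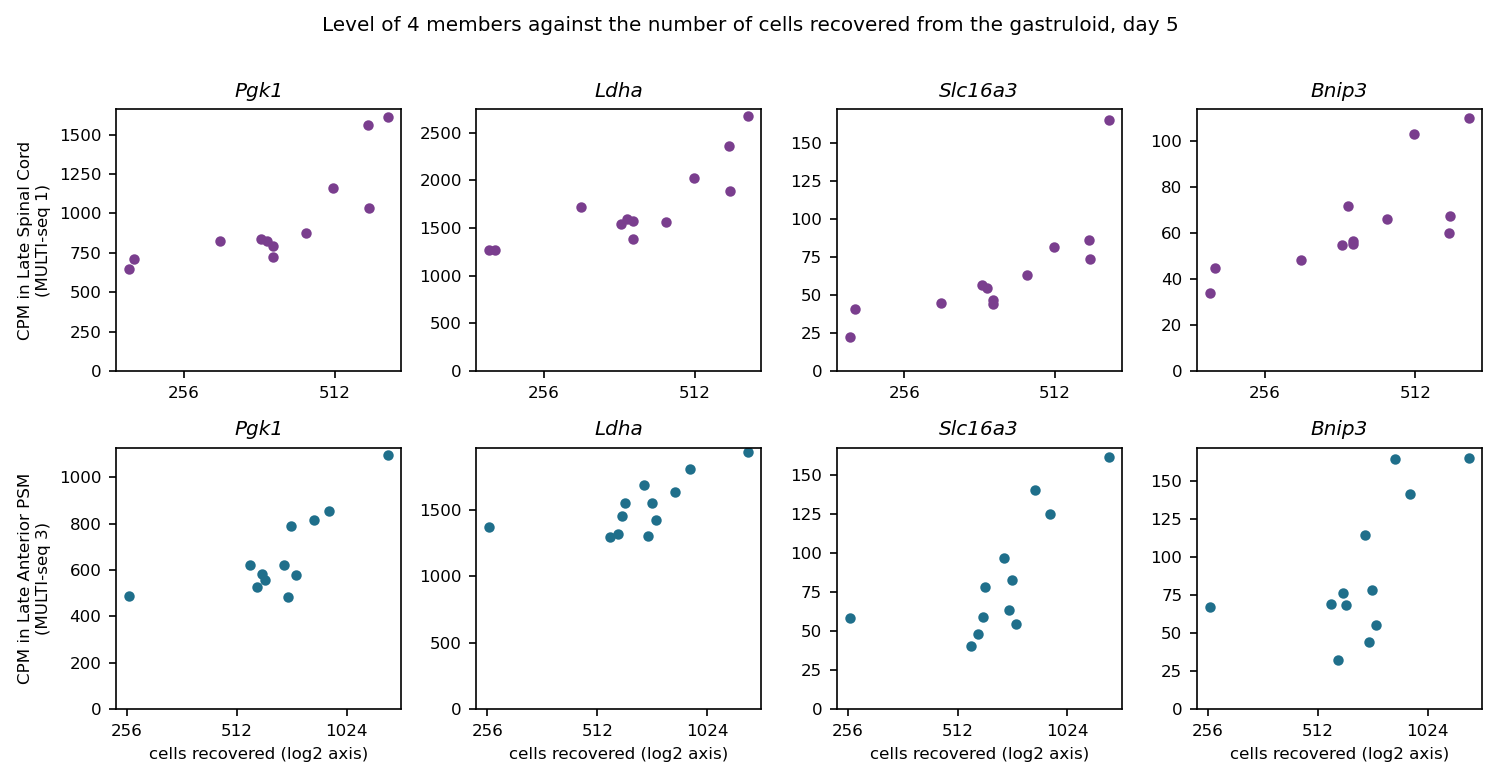
CPM of 4 members (vertical axes) in Late Spinal Cord cells of MULTI-seq 1 (top) and Late Anterior PSM cells of MULTI-seq 3 (bottom) at day 5 against the number of cells recovered from the gastruloid (log2 axis), 1 point per gastruloid and 12 per panel. Pgk1 lies between 650 and 1611 CPM in the upper panels and between 482 and 1097 in the lower, with the highest value at the most cells in each.

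Whether the members of neural and mesodermal cells moved together across gastruloids was asked with a permutation test of Pearson's r for each gene. Between Late Spinal Cord and Mature Somites cells of the same day 5 gastruloid no member passed in either experiment. The tests were by permutation in MULTI-seq 1 (n = 10, 30 members) and by exact permutation in MULTI-seq 3 (n = 8, 28 members). No gene of 8831 and 8501 tested passed either. An unadjusted p under 0.05 was held by 1 and 0 members, against 2.85% and 5.83% of all genes. At these numbers of gastruloids and permutations a lone gene could not pass after adjustment over so many genes, so the absence of calls does not show that the members moved apart. The members' median r was -0.26 in MULTI-seq 1, with 9 of 30 positive and 0.0035 for all genes, and 0.14 in MULTI-seq 3, with 20 of 28 positive and 0.12 for all genes. Between all neural and all paraxial cells, 4 of 28 members passed in MULTI-seq 3 (n = 15, permutation test), against 19 of 8479 genes (0.224%), with a median r of 0.70 for the members and 0.16 for all genes, as a description. In MULTI-seq 1 (n = 21) 0 of 30 passed, against 25 of 8879 genes (0.282%), with median r of 0.22 and 0.060. By an unadjusted permutation p under 0.05 it was 4 of 30 members, against 8.18% of all genes, and this is not read as a result.

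Other genes of the same pathways, listed with earlier results of these data known, were tested in the same fits of whole gastruloids. From day 3.5 to day 4, 60.4% of all genes passed (31.1% higher, 29.2% lower), and from day 4.5 to day 5, 13.5% (6.35% higher, 7.11% lower). Of 27 further HIF targets, 13 of 21 tested rose and 2 fell from day 3.5 to day 4 and 11 of 20 rose from day 4.5 to day 5 (median log2 0.32 and 0.24), led at the later step by the collagen lysyl hydroxylases Plod1 (0.71) and Plod2 (0.49). Of 10 HIF subunits and regulators of HIF, 6 rose and 1 fell of 10 at the earlier step and 1 of 9 rose at the later, the prolyl hydroxylase Egln1 (0.55). Of 37 further genes of glycolysis and pyruvate handling, 7 rose and 8 fell of 23 at the earlier step and 3 of 21 rose at the later, led by the phosphoglucomutase Pgm1 (0.72). Their median log2 difference was -0.028 and then -0.056, so as a list they did not rise. Of 8 pentose phosphate genes 3 rose and 2 fell, then 1 rose. At both steps the shares of HIF subunits and regulators, glycolysis and pentose phosphate genes that passed in either direction were near that of all genes.

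A list of 12 ATF4 targets also held Atf4 itself, the factor of the amino acid stress response. Of these, 2 rose and 10 fell of 12 from day 3.5 to day 4, led by Chac1 (-2.68) and Trib3 (-1.79), against 31.1% higher and 29.2% lower of all genes. From day 4.5 to day 5 none of 12 passed edgeR's test in whole gastruloids, against 13.5%, but within clusters some rose and none fell. It was 3 of 11 in Early Spinal Cord, 3 of 8 in Late Posterior PSM, 3 of 8 in NMPs and 1 of 9 in Mature Somites, against 6.33%, 3.14%, 2.62% and 6.94% of all genes higher. Of 11 dissociation and stress genes, 2 rose and 3 fell of 10, a share near that of all genes (60.4%), and then 1 of 8 rose (13.5%), the immediate early gene Jun (0.72). With cell number in Late Anterior PSM of MULTI-seq 3, 3 of 6 stress genes tested rose beside the members, against 0.753% of all genes that passed. They were Fos, Fosb and Jun, by 2.08, 2.18 and 0.62 log2 units per doubling. So did 3 of 10 ATF4 targets, Asns (0.53), Phgdh (0.52) and Vldlr (1.30). The direction was the opposite in Caudal Epiblast at day 4, where Asns (-0.65), Phgdh (-0.44) and Psat1 (-0.47), 3 of 9 ATF4 targets, fell with cell number. In that fit 76 of 9283 genes (0.819%) passed. Slc7a5 fell there at day 3.5 (-0.76, 1 of 11 targets, against 0.345% of all genes) and Psat1 over whole gastruloids at day 4 (-0.51, 1 of 12, against 10.6%). In Late Posterior PSM of MULTI-seq 3, where 4 members passed, Fosb rose by 1.91, as 1 of 6 stress genes, against 0.0893% of all genes. In both Late Spinal Cord of MULTI-seq 1 and Late Anterior PSM of MULTI-seq 3 Egln1 and Pgm1 rose as well, by 0.59 and 1.76 in the former and 0.98 and 1.71 in the latter. Egln1 was 1 of 8 HIF subunits and regulators tested in each, and Pgm1 1 of 14 and 1 of 10 further glycolysis genes. Of the further HIF targets 5 of 16 and 5 of 17 rose, against 1.01% and 0.753% of all genes that passed. The part of the stress genes and ATF4 targets in the relation was not tested.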

How the data were processed

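The deposited matrices hold UMI counts per gene and cell from 10x Genomics 3′ v3.1 libraries, which the authors made with Cell Ranger 6.0.0 on mm10, per the submitters' processing notes (Seurat is also named). Cells, cluster names and gastruloid assignments came from the authors' deposited table, and the 77674 cells it lists with a matched barcode were used. Every cell in that table passes its quality column and none is marked in its combined doublet call, and no further filter on cells was applied. UMI counts were summed per gastruloid (at least 30 cells), or per gastruloid and cluster (at least 20 cells), and CPM are those sums divided by the total UMIs of all genes and brought to the usual CPM scale. MULTI-seq 2 had no cluster with at least 8 gastruloids on both days.

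Tests were edgeR 4.0.16 quasi-likelihood fits (R 4.3.3, limma 3.58.1) with TMM scaling and filterByExpr, adjusted by Benjamini-Hochberg over all genes tested, with a threshold of 0.05. Each fit used only the gastruloids compared. The difference of a day effect between clusters, the relation to recovered cells and the covariates were added after seeing the data. DESeq2 1.42.0, other scalings and filters, 100 cells per gastruloid, and leaving out each lane were alternatives. Relations between cell types used 100000 permutations or an exact test (SciPy 1.17.1). The fit was tested on simulated data: of 200 changed genes, all with an absolute log2 change of 1 were recovered, and 80% and 75% of those with 0.5, for day 4 against day 3.5 (13428 genes) and day 5 against day 4.5 (12392 genes). The changed genes were drawn only from those above a floor of mean CPM. All genes shared the same fixed dispersion, which was not compared with that of the data here. The rates therefore do not cover members with few counts such as Ndrg1.

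The members and lists were chosen with earlier results of these data known. Members are described by role, with values for at most 12 of those past the threshold with the largest differences per comparison and for those that passed in opposite directions; of other lists, up to 3 genes are named per comparison. The lanes without gastruloid barcodes and the 23944 cells not assigned to 1 gastruloid entered no test. The day 3 and day 3.5 libraries of the second MULTI-seq experiment are not analysed here.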

Additional observations from a re-analysis of the deposited data

Results flagged for a closer look

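Of 29 groups of 4 to 10 gastruloids examined for the summed level of the 33 genes, 2 had a highest gastruloid far from the others. Chance alone gives about 1 in 20 groups, so 2 of 29 is near what chance gives. In Early Posterior PSM at day 3 of MULTI-seq 3 the highest of 5 gastruloids stood at 8904 CPM, against a median of 7811 and a lowest value of 7487. In Late Spinal Cord at day 5 of MULTI-seq 3 the highest of 8 stood at 10316 CPM, against a median of 8219 and a lowest value of 7483.

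The change from day 3.5 to day 4 differed between Caudal Epiblast and Early Posterior PSM, by the edgeR test of the difference itself, for 8 of 31 members, against 9.04% of all genes, but 3 of the 8 cannot be read as differences. The log2 change in Caudal Epiblast less that in Early Posterior PSM was -1.17 for Hk1, -1.38 for Aldoc, -0.81 for Slc16a3, 0.31 for Gpi1, 0.17 for Gapdh, 0.55 for Ldhb, 0.82 for Slc16a1 and 1.31 for Egln3. Hk1, Aldoc and Egln3 are those 3: they were filtered out for low counts within Caudal Epiblast and entered through Early Posterior PSM. Of the other 5, Slc16a3 had the higher change in Early Posterior PSM and Gpi1, Gapdh, Ldhb and Slc16a1 in Caudal Epiblast. Without lane B 2 members passed.

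The change from day 4.5 to day 5 differed between NMPs and Mature Somites for 7 of 29 members, Aldoc among them, against 4.46% of all genes. The change in NMPs less that in Mature Somites was -0.86 for Hk2, -0.43 for Aldoa, -0.21 for Gapdh, -0.54 for Pgk1, -0.22 for Eno1, -0.70 for Higd1a and 1.68 for Aldoc. Aldoc was filtered out for low counts within NMPs and entered through Mature Somites, so its value is not read as a difference. Leaving out a lane could not be fitted here for lack of gastruloids. In Early Spinal Cord less Mature Somites the difference was -0.73 for Hk2 and 1.27 for Aldoc, 2 of 32 members against 4.06% of all genes, a share near the background, with 0 members without lane C and 3 without lane A. In Late Posterior PSM less Mature Somites it was -0.70 for Slc16a3, 1 of 30 against 4.72%, no more than the background, with 0 members without lane A or lane B and 3 without lane C.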

How the results depend on the processing

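Between days or experiments, unlike between cell types of 1 gastruloid, no pairs exist. No paired analysis was possible because label numbers mark lanes of a pool and each gastruloid was sampled on 1 day. Of 1189 values of single genes under alternatives, 1087 kept direction and call, 93 were no longer called and 9 changed sign. With the number of cells as a covariate (chosen after seeing the data) 6 members passed for day 4 against day 3.5, 1 for day 5 against day 4.5, 10 in the MULTI-seq 2 fit and 21 for MULTI-seq 3 against MULTI-seq 2 at day 4. Within clusters it left 0 in Caudal Epiblast, 9 in Early Posterior PSM, 2 in Early Spinal Cord, 1 in Late Posterior PSM, 5 in Mature Somites and 1 in NMPs. It turned Ldha to -0.021, Pfkp to -0.13, Pgam1 to -0.0042 and Pgk1 to -0.046 on the log2 scale for day 4 against day 3.5. Between experiments at day 4 it turned Eno1 to 0.0072, Eno2 to -0.82 and Hk2 to 0.060. There the numbers of cells did not overlap between the experiments, so that fit, with its 21 members, cannot separate cell number from experiment. Total UMIs as the only scaling turned Eno1 to -0.032 and Hk2 to -0.030 at day 5. In MULTI-seq 2, 4 members passed with DESeq2, with at least 100 cells, with the neural share or with total UMIs, and DESeq2 gave 1 in NMPs. For the covariate fits the share of all genes that passed is not given here, so changes in the counts are not read as particular to the members.

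For the relation to recovered cells, DESeq2 gave 2 members in Early Spinal Cord of MULTI-seq 1, 9 in whole gastruloids of MULTI-seq 2 at day 4, 16 at day 4.5, 1 at day 3.5 of MULTI-seq 3, 9 in Late Anterior PSM and 0 in Late Posterior PSM, where no low-count filter gave 8. Adding the neural share gave 7 in Late Spinal Cord, 4 in Late Anterior PSM, and 0 at day 4.5 of MULTI-seq 2 and at day 4 of MULTI-seq 3. Without the 2 gastruloids farthest from the median, 14 passed in Early Spinal Cord and 14 in whole gastruloids of MULTI-seq 1, 5 in its Late Posterior PSM, 6 in Early Spinal Cord, 9 in Late Anterior PSM and 1 in Late Posterior PSM of MULTI-seq 3 at day 5, and 0 at day 4 of MULTI-seq 3 and day 4.5 of MULTI-seq 2. For all neural against all paraxial cells 4 members passed in MULTI-seq 3.

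Leaving out each lane gave 20 to 24 members for day 4 against day 3.5, 18 to 19 for day 5 against day 4.5, 2 to 2 in the MULTI-seq 2 fit, and between experiments 20 to 23 (day 5), 10 to 15 (day 4) and 13 to 16 (day 4.5). Within clusters it gave 2 to 7 in Caudal Epiblast, 15 to 17 in Early Posterior PSM, 14 to 16 in Early Spinal Cord, 11 to 13 in Late Posterior PSM, 18 to 23 in Mature Somites and 0 to 1 in NMPs. Differences of the day effect ranged from 2 to 6 (Caudal Epiblast and Early Posterior PSM), 0 to 3 (Early Spinal Cord and Mature Somites) and 0 to 3 (Late Posterior PSM and Mature Somites). For recovered cells it gave 1 to 8 in Early Spinal Cord, 0 to 7 in Late Posterior PSM, 10 to 11 in Late Spinal Cord and 0 to 1 in whole gastruloids of MULTI-seq 1, 0 to 11 at day 4.5 of MULTI-seq 2, 15 to 16 at day 4, 10 to 12 in Late Anterior PSM and 2 to 9 in Late Posterior PSM of MULTI-seq 3, 0 to 3 in NMPs of MULTI-seq 1, 0 to 1 in Mature Somites of MULTI-seq 3, and 0 to 0 in Late Anterior PSM and Mature Somites of MULTI-seq 1, in Early Spinal Cord and NMPs of MULTI-seq 3 at day 5 and in whole gastruloids of MULTI-seq 2 at day 4 and MULTI-seq 3 at days 3, 3.5, 4.5 and 5. Somites at day 5 and the clusters at other days were not run without a lane. The cause of these changes was not tested. With at least 50 cells per cluster, the relation of Late Spinal Cord and Mature Somites was not run in MULTI-seq 1. Low members such as Ndrg1 and Egln3 rest on few UMIs per cluster.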
